A study of Sus scrofa with 6 samples.

Results

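The genes described here are 10 regulators of the step from G1 into S phase of the cell cycle: the D cyclins CCND1, CCND2 and CCND3, the E cyclin CCNE2, the cyclin-dependent kinases CDK4 and CDK6, the CDK inhibitors CDKN1A and CDKN1B, and the p53 targets MDM2 and GADD45A. They were taken by name, as the rows of the deposited FPKM table whose pig Ensembl identifier carries a listed symbol. The list itself was drawn up with earlier results of these data known. All 10 were found among the 20731 genes of the table, and all 10 were above the limit of a mean of 1 FPKM that left 10950 genes for testing. FPKM counts fragments relative to gene length and to the depth of the library, so an order of different genes on it rests on the length used for each. The lengths recovered from the FPKM steps ran from 1310 bases for CDKN1B to 10011 bases for MDM2.

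D cyclins are made in response to growth signals and activate CDK4 and CDK6, which begin the phosphorylation of the retinoblastoma protein RB. E cyclins with CDK2 complete it, and the E2F transcription factors then switch on the genes of S phase. CDKN1A (p21) and CDKN1B (p27) bind and block the cyclin E kinase, and p53 raises CDKN1A, GADD45A and its own inhibitor MDM2 when cells arrest after damage. Immature Sertoli cells, the somatic nurse cells of the seminiferous tubule, still divide, and they leave the cell cycle as they mature.

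The samples were 6 RNA libraries of porcine immature Sertoli cells, 3 labelled Control and 3 labelled MT, and no genotype or agent beyond melatonin was named for either group. The MT cells had received melatonin, the pineal hormone, at 10 nM for 36 h; no vehicle or time in culture was given for the Control cells. The labels do not say whether replicates were separate cultures or animals, so the p-values rest on the spread among 6 libraries, and that spread may be purely technical. Animal age, passage and purity were not given either.

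The libraries held 19579279 to 21500665 reads, as worked out from the steps of low values. The Sertoli genes CLU (2908 to 3894 FPKM), AMH (11.3 to 15.6 FPKM) and WT1 (10.0 to 12.8 FPKM) were present in all 6, SOX9 was low at 1.61 to 2.40 FPKM, and DMRT1, INHA and KITLG were at or near 0. DHH, GATA1 and TF were at most 0.479 FPKM. Of 16 listed Sertoli genes 12 were measured, and 6 of these reached a mean of 1 FPKM. Of the 6 markers of peritubular myoid cells, ACTA2 and MYH11 were at most 0.2075 FPKM, and CNN1 and ACTG2 at most 1.07. TAGLN stood at 153.7 to 256.9 FPKM with its highest value in Control 3, and averaged 201.9 FPKM in Control and 171.8 in MT. DES went the other way, with means of 5.94 FPKM in Control and 7.98 in MT. The summed level of this list, nearly all of it TAGLN, was 160.7 to 265.4 FPKM in Control and 162.2 to 194.6 in MT. The 3 measured endothelial markers summed to at most 0.674 FPKM and the 3 measured germ cell markers to at most 1.53, with DDX4 and CDH5 near 0. The 3 measured Leydig markers summed to 3.74 to 4.87 FPKM with CYP17A1 near 0, and CD14, CD68 and CSF1R, the last near 0, to 9.38 to 13.3. Summed over 12 measured genes, the Sertoli list stood at 2939.6 to 3456 FPKM in Control and 3326 to 3925 in MT, nearly all of it CLU. In this bulk RNA a change in the make-up of the cells and a change in RNA per cell cannot be told apart.

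Control replicate 3 (Control 3) was unlike the rest. Its score on the first principal component of the tested genes, which carried 68.2% of the variance, was 40.4, while Control 1 and Control 2 scored -22.0 and -21.7 and the MT libraries -10.4 to 7.5. On the second component, with 16.5% of the variance, Control 3 lay with its group. It scored 12.1 there, Control 1 and Control 2 scored 6.5 and 12.3, and the MT libraries -13.7 to -7.6. Control 3 held the highest value of the 6 libraries for CCND1, CCND3, CDK4 and GADD45A and the lowest for CCNE2, CDK6, CDKN1B and MDM2, so it was at an end of the range in 8 of the 10 genes, as it was in 74.2% of all tested genes. The differences of the 10 genes are therefore given with and without it.

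The level of the 10 genes ran from the inhibitor CDKN1A, at a mean of 189.3 FPKM over the 6 libraries and rank 204 of the 10950 tested genes, down to CCNE2, at 2.33 FPKM and rank 9369. Between them, in order, came CDK4 (80.9 FPKM), GADD45A (66.4), CCND1 (50.5), CDKN1B (28.8), CDK6 (19.6), CCND2 (18.6), CCND3 (9.64) and MDM2 (7.33). CDKN1A was above CDK4, CDK4 above GADD45A, GADD45A above CCND1 and CCND1 above CDKN1B in 6 of 6 libraries. CDK6 was above CCND2 in 4 of 6 and CCND3 above MDM2 in 3 of 6, and the ranges of each of these pairs overlapped. CDKN1A, an inhibitor of the cycle, was thus the highest of the 10 in each Control and each MT library.

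**Figure D1:**
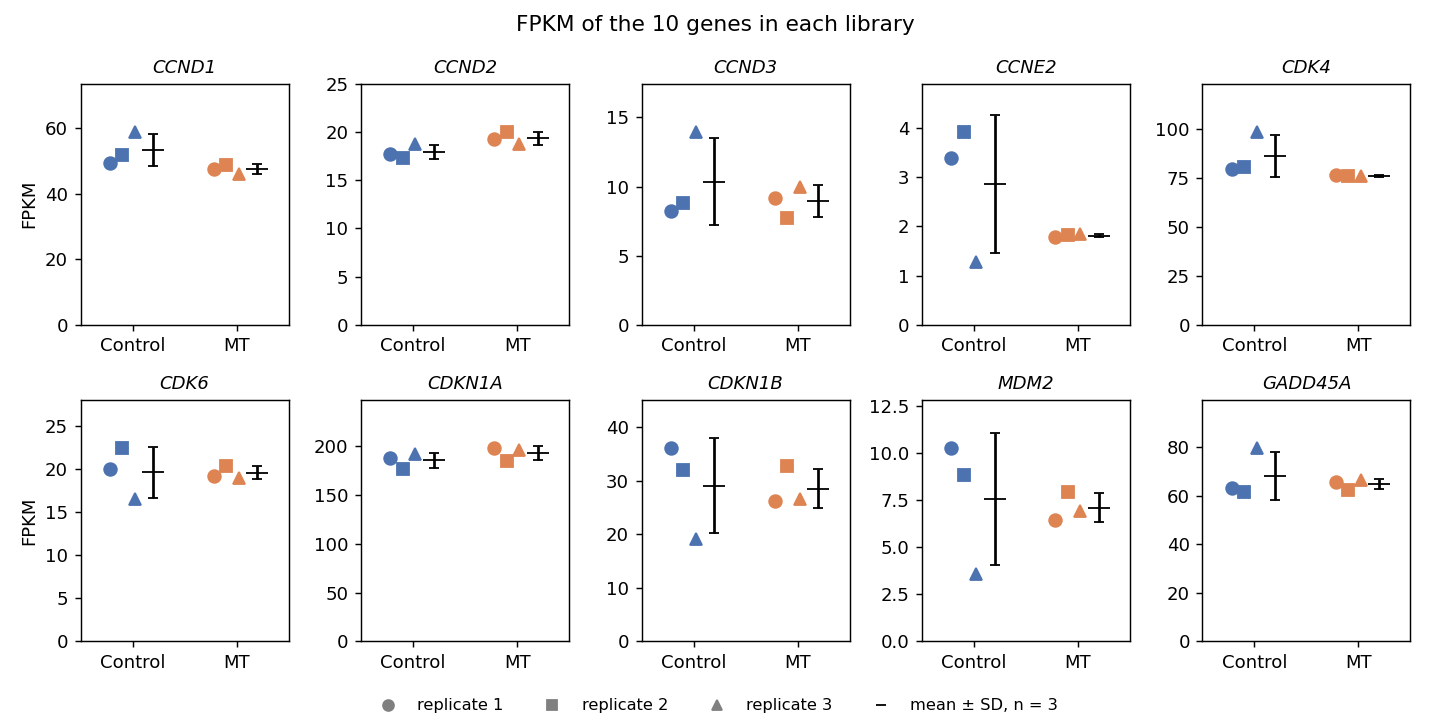
FPKM (y axis, from 0, its own scale in each panel) of each gene in the 3 Control (blue) and 3 MT (orange) libraries; the marker shape gives the replicate number and the black bar the mean ± SD, n = 3. Control replicate 3 (blue triangle) lies away from the other Control libraries in most panels, and the MT libraries of CCNE2 lie at 1.78 to 1.84 FPKM.

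Over the 6 libraries none of the 10 genes differed between MT and Control at an adjusted p of 0.05 in limma, and neither did any other gene (0% of 10950). At an unadjusted p under 0.05 limma held 0 of the 10 genes, where 4.72% of all tested genes had such a p; limma voom on the recovered reads also called 0 genes, with 495 (4.52%) at an unadjusted p under 0.05. The adjusted p was 0.9998 for each of the 10 genes. Among them 5 were higher in MT and 5 lower, beside 6128 and 4822 of all 10950 tested genes. Their median log2 difference was -0.03 on the log2(FPKM + 1) scale, beside 0.02 for all tested genes. Without Control 3, 1 of the 10 genes passed, CCNE2, which fell; 10.9% of all tested genes then passed and 6.62% fell. The single differences lay between -0.38 (CCNE2) and 0.10 (CCND2) with 6 libraries.

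CCND1, the D cyclin best known as a sensor of growth signals, had 49.5, 51.9 and 58.9 FPKM in Control 1 to 3, and 47.6, 48.9 and 46.1 FPKM in MT 1 to 3. All MT values lay below all Control values, but the gap between MT 2 and Control 1 was small beside the distance of Control 3 from its group. Its log2 difference was -0.16 (95% interval -0.42 to 0.09), and -0.09 without Control 3 (-0.25 to 0.06, adjusted p 0.34). Groups that did not overlap were found in 11.2% of all tested genes (6.24% with MT higher and 4.99% with MT lower), and among the 10 genes in CCND1 and CDK4, both lower in MT. Without Control 3 they were found in 5 of the 10 genes and in 56.2% of all tested genes. CCND1 (ENSSSCG00000037900) lies on chromosome 2, from 3621242 to 3633380 of Sscrofa11.1.

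CCND2, the D cyclin that follicle-stimulating hormone raises in the granulosa cells of rodents, stood at 17.7, 17.3 and 18.7 FPKM in Control 1 to 3 and at 19.3, 20.0 and 18.7 FPKM in MT 1 to 3. Control 1 and 2 were the lowest values, and Control 3 lay just above MT 3. With MT above Control 1 and 2, CCND2 was among 25.9% of all tested genes. Its log2 difference was 0.10 (95% interval -0.13 to 0.34), and 0.14 without Control 3 (-0.02 to 0.30, adjusted p 0.19). The gene (ENSSSCG00000038694) lies on chromosome 5, from 66092483 to 66114575.

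CCND3, the D cyclin of many differentiated cells, stood at 8.26, 8.79 and 13.96 FPKM in Control 1 to 3 and at 9.16, 7.69 and 10.0 FPKM in MT 1 to 3. Control 3 was 1.64 times the mean of the other Control libraries, and the remaining 5 values were mixed in order. On the log2 scale the difference was -0.16 (95% interval -0.65 to 0.33) with 6 libraries and 0.06 (-0.20 to 0.32, adjusted p 0.73) without Control 3. CCND3 (ENSSSCG00000032284) lies on chromosome 7, from 37087336 to 37182462, and its RefSeq span shares 3193 bases with TAF8, whose Control level was 3.61 ± 0.20 FPKM and whose MT level was 3.65 ± 0.36 FPKM (mean ± SD, n = 3).

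Within a library the make-up of the D cyclins can be read without regard to scaling between libraries, but it rests on the gene lengths used. By recovered reads CCND3 had at least 1471 and CCND2 at most 1243 in any library. Their recovered lengths were 9337 and 3003 bases, so CCND3 was the lower of these genes in FPKM. CCND1 took 65.6%, 66.6% and 64.3% of the summed D cyclin FPKM in Control 1 to 3 and 62.6%, 63.8% and 61.6% in MT 1 to 3. The share was thus lower in each MT library than in each Control library, with a difference of the means of -2.79 percentage points, and of -3.38 to -2.25 with any one library left out. The share of CCND2 was 20.5% to 23.5% in Control and 25.0% to 26.1% in MT, a difference of 3.46 points, and that of CCND3 was 12.5% and 11.8% on average, -0.67 points with 6 libraries and 0.71 without Control 3. The exact permutation test (two-sided, n = 3 a group) gave p = 0.10 for the shares of CCND1 and CCND2 and p = 0.70 for that of CCND3. A p of 0.10 is the smallest that 3 against 3 can give. The share of CCND2 was computed after the values were seen. The summed D cyclin level itself averaged 81.6 ± 8.68 FPKM over the Control libraries and 75.8 ± 0.93 over the MT libraries (mean ± SD, n = 3), with an exact permutation p of 0.30. The difference of the means was -5.86 FPKM with 6 libraries and -0.90 FPKM without Control 3, where the Control mean was 76.7 FPKM.

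CDK4, the more abundant of the kinases that D cyclins activate, stood at 79.2, 80.5 and 98.3 FPKM in Control 1 to 3 and at 76.2, 75.6 and 75.6 FPKM in MT 1 to 3. The MT libraries differed from each other by under 1 FPKM, and all were below the lowest Control library. MT minus Control came to -0.17 (95% interval -0.45 to 0.10) with 6 libraries and -0.07 (-0.21 to 0.07, adjusted p 0.39) without Control 3. CDK4 (ENSSSCG00000025092) lies on chromosome 5, from 23039206 to 23041959.

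CDK6, its close relative, stood at 20.0, 22.4 and 16.5 FPKM in Control 1 to 3 and at 19.2, 20.4 and 19.0 FPKM in MT 1 to 3, so the MT libraries lay within the Control range. The log2 difference was 0.00 (95% interval -0.31 to 0.32), and -0.11 without Control 3 (-0.29 to 0.08, adjusted p 0.34). CDK4 made up 79.9%, 78.3% and 85.7% of the summed CDK4 and CDK6 FPKM in Control 1 to 3 and 78.8% to 79.9% in MT (exact permutation p = 0.80, two-sided, n = 3 a group). The difference of the means was -1.74 percentage points, and 0.46 points without Control 3. CDK6 (ENSSSCG00000040183) lies on chromosome 9, from 72510858 to 72765631, where the RefSeq entry of that symbol is classed as a long noncoding RNA.

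CCNE2, an E cyclin that activates CDK2 at the end of G1, had the largest difference of the 10 genes. It stood at 3.38, 3.92 and 1.27 FPKM in Control 1 to 3 and at 1.78, 1.82 and 1.84 FPKM in MT 1 to 3. The MT libraries were close to each other, well below Control 1 and 2, and Control 3 lay below all of them. Its log2 difference was -0.38 (SE 0.28, 95% interval -1.06 to 0.30). Without Control 3 CCNE2 fell, with a log2 difference of -0.72 (SE 0.09, 95% interval -0.95 to -0.50, limma adjusted p 0.020), an MT mean 0.496 times that of Control 1 and 2. MT libraries all below Control 1 and 2 were found in 30.3% of tested genes. The values rest on 242, 287 and 97 reads in Control and 140, 136 and 139 in MT, so counting error alone is up to 10.2% of a value.

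CCNE2 (ENSSSCG00000006095) lies on chromosome 4, from 41802090 to 41821870, and its span shares 1153 bases with INTS8, a subunit of the Integrator complex. INTS8 stood at 14.9, 14.4 and 9.30 FPKM in Control 1 to 3 and at 11.3, 11.12 and 11.6 FPKM in MT 1 to 3, the same order of high, middle and low libraries as CCNE2. MDM2, on chromosome 5, had this order too, as did MDM4, CDKN3, RBL1 and RRM2B from the lists described below. The share of all tested genes with this order is not given here. INTS8 had a log2 difference of -0.15 over 6 libraries (limma adjusted p 0.9998) and fell without Control 3 (-0.35, adjusted p 0.034). The strand setting of the counting is not given in the sources used here, and the part of shared reads in the CCNE2 values was not tested. Its partner in function, CCNE1, which is not one of the 10, averaged 3.88 FPKM over the Control libraries and 3.83 over the MT libraries. Its log2 difference was -0.01, and -0.13 without Control 3 (adjusted p 0.34).

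CDKN1A, the p21 inhibitor through which p53 halts the cycle, was the highest of the 10 genes and, beside CCND2, the one that varied least within Control. It stood at 187.6, 176.6 and 192.1 FPKM in Control 1 to 3 and at 197.8, 185.3 and 196.6 FPKM in MT 1 to 3, and the groups overlapped. On the log2 scale the difference was 0.06 (95% interval -0.17 to 0.28), and 0.09 without Control 3 (-0.07 to 0.24, adjusted p 0.38). The interval reaches 0.28 log2 units upward, and a p outside the threshold does not show that the levels were equal. CDKN1A (ENSSSCG00000001565) lies on chromosome 7, from 32354776 to 32363771.

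CDKN1B, the p27 inhibitor whose loss in mice leads to more Sertoli cells, stood at 36.0, 32.1 and 19.2 FPKM in Control 1 to 3 and at 26.2, 32.7 and 26.5 FPKM in MT 1 to 3. MT 2 lay with Control 1 and 2, MT 1 and MT 3 lay lower and Control 3 was the lowest. MT minus Control came to 0.01 (95% interval -0.55 to 0.58) with 6 libraries and -0.25 (-0.52 to 0.01, adjusted p 0.15) without Control 3. The ratio of CDKN1A to CDKN1B FPKM was 5.21, 5.51 and 10.0 in Control 1 to 3 and 7.54, 5.67 and 7.42 in MT 1 to 3 (exact permutation p = 1.0, two-sided, n = 3 a group). It was 1.52 higher in MT without Control 3, in which CDKN1B was low while CDKN1A was not. CDKN1B (ENSSSCG00000037144) lies on chromosome 5, from 59731224 to 59735831.

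MDM2, the ubiquitin ligase that destroys p53 and is itself switched on by it, stood at 10.3, 8.84 and 3.57 FPKM in Control 1 to 3 and at 6.48, 7.94 and 6.91 FPKM in MT 1 to 3. The MT libraries lay between Control 3 and the other Control libraries. The log2 difference was 0.02 (SE 0.33, 95% interval -0.76 to 0.81) with 6 libraries. Without Control 3 it was -0.38 (SE 0.11, 95% interval -0.63 to -0.13), and the limma adjusted p was 0.058, just outside the threshold. By limma voom on recovered reads, without Control 3, MDM2 passed at -0.43 (adjusted p 0.023), in a fit that called 21.6% of all tested genes. MDM2 (ENSSSCG00000000488) lies on chromosome 5, from 33105717 to 33137602.

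GADD45A, a p53 target that acts in growth arrest and DNA repair, stood at 63.2, 61.6 and 79.4 FPKM in Control 1 to 3 and at 65.5, 62.2 and 66.3 FPKM in MT 1 to 3. The MT libraries overlapped with Control 1 and 2, and Control 3 was the highest. Its log2 difference was -0.06 (95% interval -0.36 to 0.24), and 0.05 without Control 3 (-0.10 to 0.20, adjusted p 0.59). For CDKN1A, MDM2 and GADD45A, all targets of p53, the differences over 6 libraries were 0.06, 0.02 and -0.06. Each interval includes 0, so no direction was established for them. Among the Control libraries they did not move together: in Control 3 MDM2 was 0.374 times, GADD45A 1.27 times and CDKN1A 1.05 times the mean of Control 1 and 2. GADD45A (ENSSSCG00000037066) lies on chromosome 6, from 144940702 to 144944089.

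**Figure D2:**
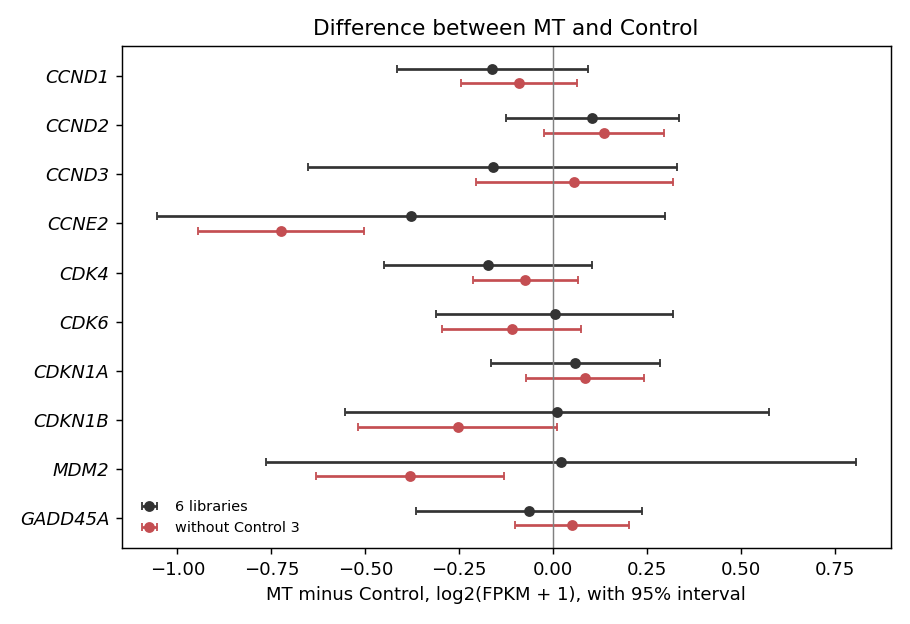
Difference between MT and Control on the log2(FPKM + 1) scale (x axis) for each gene (y axis), with its 95% interval from limma, over 6 libraries (black) and without Control replicate 3 (red). Every black interval includes 0; the red intervals of CCNE2 and MDM2 lie below it, at -0.95 to -0.50 and -0.63 to -0.13, and only CCNE2 passes the adjusted p.

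The coefficient of variation between libraries was larger in Control than in MT for 10 of 10 genes, with a median of 14.8% in Control and 3.48% in MT, and it was larger in Control for 83.8% of all tested genes. With Control 1 and 2 alone it was larger in Control for 5 of the 10 genes, with a median of 4.33%, and for 27.6% of all tested genes. These counts set 2 Control libraries against 3 MT libraries, so they are not on equal terms. Over the 3 Control libraries the coefficient ranged from 4.15% for CCND2 and 4.30% for CDKN1A to 46.7% for MDM2 and 49.1% for CCNE2, and in MT from 0.47% for CDK4 to 13.1% for CCND3. CCND2 and CDKN1A were thus the genes that Control 3 left in place, at 1.07 and 1.05 times the mean of Control 1 and 2. Within MT, MT 2, the MT library nearest to Control 1 and 2 on the first component at -10.4, had the highest CDKN1B and MDM2 of its group and the lowest CCND3. The part of this component in the differences between the groups was not tested.

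**Figure D3:**
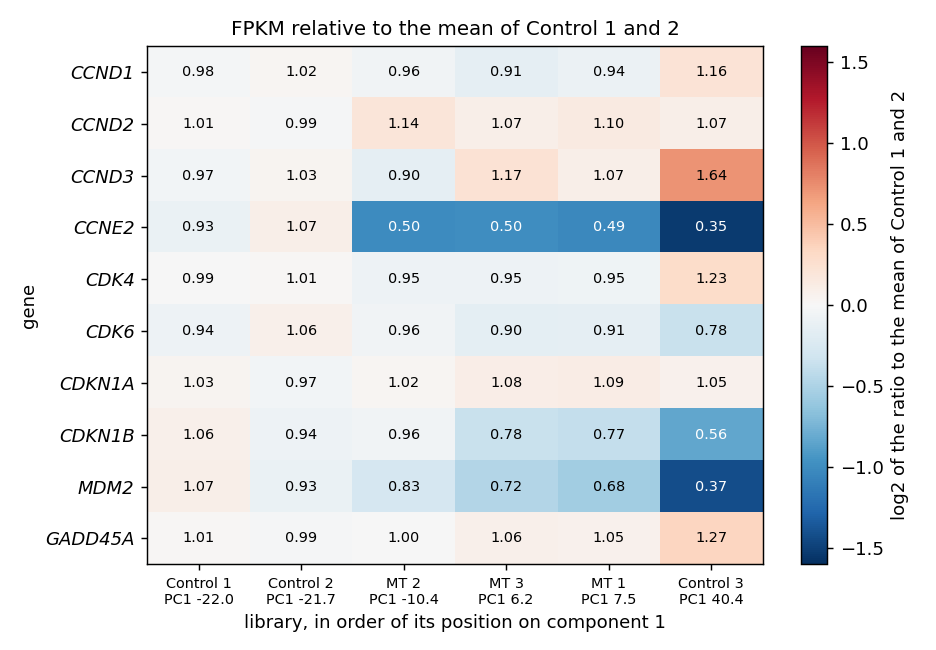
FPKM of each gene (rows) in each library (columns, in order of the library's position on the first principal component, PC1), written as the ratio to the mean of Control 1 and 2 and coloured by its log2. MDM2 steps down from Control 1 (1.07) to Control 3 (0.374), while CCNE2 is at 0.488 to 0.503 in all 3 MT libraries.

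The other genes of these pathways were taken from 6 lists, and 0 of their members passed over 6 libraries. Among 22 tested partners of the G1 and S step, 8 were higher and 14 lower in MT, beside 6128 and 4822 of all 10950 tested genes. The median log2 difference of the 22 was -0.03. Without Control 3 the median was -0.14, and 3 of the 22 fell and 0 rose, beside 6.62% and 4.28% of all tested genes. CDKN2C, the INK4 inhibitor p18 that binds CDK4 and CDK6, stood at 46.3, 45.2 and 48.3 FPKM in Control 1 to 3 and at 36.2, 37.3 and 37.2 FPKM in MT 1 to 3. The groups did not overlap in 3 of the 22 partners, all with MT lower, beside 4.99% of all tested genes. For CDKN2C, 1 of these, Control 3 lay with its group and the groups were well apart. On the log2 scale the difference was -0.33 (SE 0.09, limma adjusted p 0.77), and CDKN2C fell without Control 3 (-0.30, adjusted p 0.037).

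CDC25A, the phosphatase that releases CDK2 from inhibition, stood at 4.25, 4.01 and 4.56 FPKM in Control 1 to 3 and at 3.01, 3.20 and 2.95 FPKM in MT 1 to 3, with Control 3 again among its group. It had a log2 difference of -0.38 (SE 0.11, limma adjusted p 0.77) and fell without Control 3 (-0.34, adjusted p 0.0475). CDK2, the partner of the E cyclins, averaged 8.39 ± 0.85 FPKM over Control and 7.14 ± 0.20 over MT libraries (mean ± SD, n = 3) and did not pass in either fit (adjusted p 0.051 without Control 3). TFDP1, the dimer partner of E2F, was at 28.2 ± 3.73 and 25.0 ± 1.01 FPKM and passed in neither. CDKN3, a phosphatase that acts on CDK2, had a log2 difference of -0.31 over 6 libraries (limma adjusted p 0.9998) and fell without Control 3 (-0.65, adjusted p 0.032). Its Control 3 value of 3.85 FPKM was below all MT libraries.

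The next list held 16 tested genes: the RB and E2F families, members of the repressor complexes they form, and DYRK1A. Of these, 13 were lower in MT, beside 4822 of all 10950 tested genes, and the median log2 difference was -0.12. Of the 11 that belong to the families themselves 8 were lower. Without Control 3 the median of the 16 was -0.23, and 3 fell and 0 rose, beside 6.62% and 4.28% of all tested genes. Over 6 libraries the groups did not overlap in 4 of the 16, all with MT lower, beside 4.99% of all tested genes. The repressors E2F7 and E2F8, both among these, averaged 8.65 ± 1.13 and 3.87 ± 0.68 FPKM over the Control libraries. Over the MT libraries E2F7 and E2F8 averaged 6.31 ± 0.39 and 2.59 ± 0.13 FPKM (mean ± SD, n = 3). Their log2 differences over 6 libraries were -0.40 and -0.43, and both fell without Control 3, with -0.50 each (limma adjusted p 0.026 for E2F7 and 0.043 for E2F8). RBL1 (p107), a relative of RB, had -0.09 over 6 libraries (limma adjusted p 0.9998) and fell without Control 3 (-0.42, adjusted p 0.032). Its Control 3 value was 5.29 FPKM beside 8.08 to 8.75 in MT. The activators E2F2 (3.63 ± 0.53 and 2.62 ± 0.35 FPKM) and E2F1 (13.2 ± 2.16 and 11.5 ± 0.79 FPKM) did not pass in either fit.

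Among 16 tested S phase genes that E2F controls, 16 were lower in MT, beside 4822 of all 10950 tested genes. Their median log2 difference was -0.32, and the groups did not overlap in 11, all lower, beside 4.99% of all tested genes. In Control 3 these genes lay a median of 0.43 above Control 1 and 2. Without Control 3 the median difference was -0.21, with 14 lower and 2 higher, beside 5544 and 5406 of all tested genes. Then 5 of the 16 fell, beside 6.62% of all tested genes: GINS1 (-0.49), ORC1 (-0.36), POLA1 (-0.47), MCM6 (-0.30) and CDC6 (-0.45, named after its value was seen). Over 6 libraries these 5 had differences of -0.43, -0.32, -0.32, -0.16 and -0.34. TK1 and MCM4 had log2 differences of -0.59 and -0.39 with 6 libraries and did not pass.

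The lists of p53 regulators and p53 targets had medians near 0 over 6 libraries. Among 14 tested regulators 8 were higher and 6 lower, with a median log2 difference of 0.01, and without Control 3, 6 were higher and 8 lower, with a median of -0.02. Without Control 3, 1 of the 14 fell and 0 rose, beside 6.62% and 4.28% of all tested genes. Groups that did not overlap over 6 libraries were found in 0 of the 14, beside 11.2% of all tested genes. PPM1D, a phosphatase that ends the p53 response, averaged 3.81 ± 0.31 FPKM over the Control libraries and 4.14 ± 0.17 over the MT libraries (mean ± SD, n = 3), and HIPK2, a kinase of p53, 6.04 ± 1.68 and 6.82 ± 0.79. RPL5, a ribosomal protein that binds MDM2, averaged 407.8 ± 84.8 and 454.7 ± 14.4 FPKM, and none of these 3 passed in either fit. MDM4, the relative of MDM2 that also holds back p53, had a log2 difference of -0.05 over 6 libraries (limma adjusted p 0.9998) and fell without Control 3 (-0.47, adjusted p 0.040). Its values were 6.15, 5.44 and 1.88 FPKM in Control 1 to 3 and 3.63, 4.38 and 3.75 FPKM in MT 1 to 3, the order of libraries seen for MDM2.

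Among 26 other tested p53 targets 13 were higher and 13 lower over 6 libraries, with a median of -0.01. Without Control 3, 1 rose and 1 fell, beside 4.28% and 6.62% of all tested genes, and the median was -0.13. With 6 libraries the groups did not overlap in 1 of the 26 with MT higher, SESN2, and in 0 with MT lower. Of all tested genes these shares were 6.24% and 4.99%. SESN2, a stress-induced inhibitor of mTORC1 that ATF4 also controls, stood at 5.90, 5.99 and 7.41 FPKM in Control 1 to 3 and at 9.48, 9.79 and 8.54 FPKM in MT 1 to 3. Its log2 difference was 0.47 (SE 0.13, limma adjusted p 0.74), and SESN2 rose without Control 3 (0.56, adjusted p 0.024). RRM2B, a p53-induced subunit of ribonucleotide reductase, had a log2 difference of 0.03 over 6 libraries (limma adjusted p 0.9998), which turned without Control 3, where RRM2B fell (-0.34, adjusted p 0.045), with 2.70 FPKM in Control 3 and 4.94 to 5.51 in MT. PLK2, PMAIP1 and GADD45B, with log2 differences of -0.44, -0.40 and -0.23 over 6 libraries, did not pass in either fit.

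Genes that respond to growth signals upstream of the D cyclins had a median log2 difference of -0.21 over 13 tested members, and of -0.18 without Control 3. Of the 13, 10 were lower over 6 libraries, beside 4822 of all 10950 tested genes. Without Control 3, 1 of the 13 fell and 0 rose, beside 6.62% and 4.28% of all tested genes. The 1 that fell was IER3, an immediate early gene (-1.04, limma adjusted p 0.025). Its log2 difference over 6 libraries was -0.98 (limma adjusted p 0.31). MYC, which can raise CCND2 and lower CDKN1A, stood at 58.5, 74.5 and 77.6 FPKM in Control 1 to 3 and at 49.9, 54.4 and 49.8 FPKM in MT 1 to 3. The groups did not overlap in 5 of the 13 with MT lower, MYC among them, and in 2 with MT higher. Of all tested genes these shares were 4.99% and 6.24%. MYC did not pass in either fit (-0.43, limma adjusted p 0.82, and -0.36, adjusted p 0.067, without Control 3). FOSL1, an AP-1 subunit, had a difference of -0.70 (adjusted p 0.82) and ETV5, a target of ERK signalling, of 0.38 (adjusted p 0.94), and neither passed without Control 3.

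**Figure D4:**
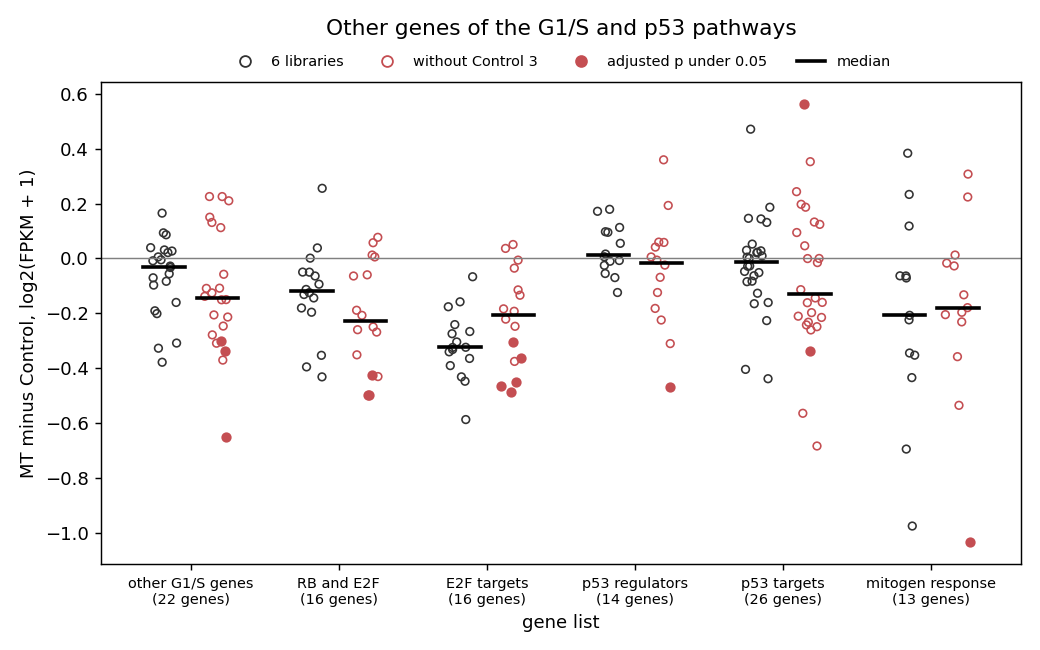
Log2 difference between MT and Control (y axis) of the tested members of 6 gene lists (x axis), 1 point a gene, over 6 libraries (black) and without Control replicate 3 (red). Filled points have an adjusted p under 0.05 and the bar is the median; no black point is filled, and the E2F targets have medians of -0.32 and -0.21.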

How the data were processed

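The authors deposited FPKM per gene and library, without pooling replicates. Per the submitters' processing notes, HISAT2, featureCounts (Subread) and bcl2fastq were used with the Sscrofa11.1 build; annotation release, versions and strand setting are not given in the sources used. Symbols came from a table of Ensembl identifiers (13173 of 20731 genes), and positions from RefSeq for Sscrofa11.1 by symbol. FPKM depends on each library's total, so abundant transcripts move all values.

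Genes averaging 1 FPKM or more were log2(FPKM + 1) transformed and MT compared with Control in limma (version 3.58.1, R 4.3.3; variance trend, group as the only term, two-sided), with Benjamini-Hochberg adjustment over 10950 genes and a threshold of 0.05. This scale understates changes of low genes. Reads recovered from FPKM steps were whole within 0.01 for 100.0% of tested genes. Shares and ratios were compared by exact permutation. Python 3.11.15 was used for tables and plots.

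The members, lists and tests were chosen with earlier results of these data known. Named from each list were up to 4 genes of smallest p over 6 libraries, and up to 4 of smallest p that passed without Control 3; 1 gene so named is not reported here. Alternatives were other pseudocounts, filters, scalings, variance models, voom, a replicate block and leaving out each library; other scalings and voom without Control 3 were added after seeing the data.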

Additional observations from a re-analysis of the deposited data

How the results depend on the processing

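In limma on log2(FPKM + 1), leaving out a library gave 0 to 1194 called genes and 0 to 1 called members, the highest of both without Control 3, where CCNE2 passed; by voom without Control 3, 2367 genes were called, CCNE2 and MDM2 among them. Any other library left out gave 0, as did the other pseudocounts, filters, scalings and variance models and voom with all 6 libraries. The direction of 5 genes depended on Control 3. With 1 library left out the log2 difference ranged from -0.29 to 0.057 for CCND3, -0.11 to 0.10 for CDK6, -0.25 to 0.18 for CDKN1B, -0.38 to 0.27 for MDM2 and -0.13 to 0.0499 for GADD45A. Those of CDK6, CDKN1B and MDM2 also turned without MT 2, to -0.025, -0.089 and -0.052, and with all 6 libraries under other scalings: -0.014 for CDK6 and -0.0076 for CDKN1B by median-of-ratios factors and -0.0305 for MDM2 by quantile normalisation. Without Control 3, CCND3, CDK6, CDKN1B, MDM2 and GADD45A stood at 0.063, -0.12, -0.26, -0.43 and 0.051 by voom on recovered reads, at 0.085, -0.11, -0.28, -0.35 and 0.041 by quantile normalisation and at 0.054, -0.11, -0.26, -0.38 and 0.047 by median-of-ratios factors; CCNE2 stood at -1.01, -0.68 and -0.72 and passed in all 3 (adjusted p 0.0047, 0.024 and 0.019). The directions of CCND1, CCND2, CCNE2, CDK4 and CDKN1A were the same in all alternatives run (CCNE2 was not tested under the filter of 5 FPKM). Whether the replicate numbers pair the samples is not known. The deviations of same-numbered libraries from their group means correlated at -0.44, 0.63 and 0.34. These values cannot settle it, since Control 3 moves the Control mean from which all Control deviations are taken. The replicate block called 0 genes and left the median of the members at -0.03. The cause of these turns was not tested. With 97 reads in its lowest library, CCNE2 is the member that depth limits most.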
